A study of Mus musculus with 195 samples.

Results

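A set of 37 mouse genes that carry out or regulate the copying of chromosomal DNA was followed in single cells of 3 populations. The members were chosen by name, for their textbook roles in S phase, by a rule that uses no measured value, though with earlier results of these data known. All 37 were found among the 19736 genes of the table of transcript molecules per gene. They comprise 10 genes of origin licensing, 4 of helicase activation, 5 of the polymerases, 6 of the sliding clamp and its loader, 3 of single-strand binding, 2 of Okazaki fragment maturation, 4 of nucleotide supply and 3 that link replication to histones and chromatin.

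Replication begins with licensing, in which the origin recognition complex, Cdc6 and Cdt1 load the ring of Mcm2 to Mcm7 onto DNA while cells are in G1. At the start of S phase the ring is turned into an active helicase by Cdc45, the GINS complex and Mcm10, and polymerases, clamp, clamp loader and ligase then build the daughter strands. Most of these genes are textbook targets of E2F transcription factors and are transcribed from late G1 into S phase. Embryonic stem cells are known for a short G1 and a high share of cells in S phase.

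Transcripts were measured with BATSeq, a method that reads the 3′ end of each polyadenylated RNA together with a cell barcode and a unique molecular identifier, so that reads of a gene sharing an identifier count as 1 molecule. All cells descend from the 46C line, mouse ES cells of E14tg2a origin with GFP at the Sox1 locus. ESC-2i cells were grown without serum in 1 μM PD0325901 and 3 μM CHIR99021, inhibitors of MEK and GSK3, with LIF at 10 ng/ml, and ESC-FCS cells in 10% bovine serum with the same LIF. NSC were neural stem cells differentiated from these ES cells. After a sort for Sox1-GFP they were grown in EGF and bFGF until GFP was lost and Nestin had risen uniformly. All cells are labelled as G1, and the gate took small cells of 1N DNA content by Hoechst stain and scatter, so the cells were selected for being outside S phase. A population was sorted as 48 cells in 2 library batches of 24 cells. The labels name no replicate cultures, so a population is 1 sample, no test between populations was made, and all intervals below are exact 95% intervals that cover counting error only.

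The table held 33 ESC-2i, 33 ESC-FCS and 41 NSC cells, 107 of the 144 sorted, with 368362, 226683 and 151877 molecules on genes. The median cell of ESC-2i held 10864 molecules, that of ESC-FCS 6375 and that of NSC 3282. A count of 0 over a population allows a level of up to 0.0814, 0.132 and 0.198 molecules per 10000, by the rule of 3 counts. The neural marker list summed to 49.8 molecules per 10000 in NSC and to 3.47 and 3.35 in ESC-2i and ESC-FCS, whereas the pluripotency list summed to 1.25 in NSC and to 22.6 and 18.3, with Nanog, Tdgf1 and Zfp42 at 0 in NSC, as the labels of the populations would have it. Sox2 stood in both lists and made up 17 of the 19 NSC molecules of the pluripotency list. Its ratio of NSC to ESC-FCS was 0.488 (0.265 to 0.858), against the direction of the neural list. Genes of the mitochondrial genome took 5.09% of molecules in NSC, against 1.72% and 1.95%. The same 24 cell barcodes were used in every batch. Of pairs of batch and cell barcode, 48 were used by both an ESC-2i cell and an additional ESC-FCS cell described below. No 2 cells held identical values.

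Each count of a member is a count of transcript ends, and a level below is the number of a gene's molecules per 10000 molecules on all genes. Since 1 molecule is 1 transcript end, levels of different genes do not scale with transcript length. The members' 4035 molecules lay at 193 sites, of which 91 held 1 molecule, and the most used site lay in the 3′ UTR for 37 of 37 members. It held between 52.3% and 100% of a member's molecules, with a median of 92.1%, against a median of 81% over 6063 genes with at least 20 molecules. The last 30 bases of the transcript at this site are shown for members on which the results turn, from GENCODE transcripts on GRCm38, with the polyadenylation signal (AATAAA or ATTAAA) in capitals. These are Mcm2 and Mcm7, the most abundant members, Rpa2, with 1 molecule in NSC, and Tyms, which used a pair of sites. Pcna and Rrm2 are also shown, each called variable between cells in 1 population in the main setting of a test of variation. The sites lie at chr6:88883476-88883505 (Mcm2, minus strand), chr5:138164601-138164630 (Mcm7, minus), chr2:132249288-132249317 (Pcna, minus), chr12:24714051-24714080 (Rrm2, plus), chr4:132778450-132778479 (Rpa2, plus) and chr5:30060998-30061027 (Tyms, minus).
Mcm2: taatagatttgAATAAAacctaaatagcgc
Mcm7: tttattctgccAATAAAgtgttttgattgc
Pcna: aatttaAATAAAgttaacaatttgaaaagt
Rrm2: attattgttacttaaaattAATAAActctt
Rpa2: tgttcatatgtttgataaaacagttcgatt
Tyms: atccaacgATTAAAatggaaatggctgttt
AATAAA stood in this window for 28 of 37 members (75.7%) and for 68.4% of 5673 genes with at least 20 molecules, and either signal for 78.4% and 83.6%. In the Rpa2 window neither form was found. Of all members, 9 overlap another gene annotated on the same strand, and pseudogenes are named for Pcna and Tyms, so a few of their molecules could belong to another locus.

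Summed over the 37 members, replication transcripts were least abundant in NSC. ESC-2i held 2111 molecules of the members, or 57.3 per 10000 (interval 54.9 to 59.8), ESC-FCS held 1543, or 68.1 (64.7 to 71.6), and NSC held 381, or 25.1 (22.6 to 27.7). The batches of a population lay close together relative to the distance of NSC from the ES cells, at 53.8 and 60.4 in ESC-2i, 69.3 and 66.4 in ESC-FCS and 28.7 and 21.1 in NSC. The summed level was 2.28-fold lower in NSC than in ESC-2i (ratio 0.438, interval 0.391 to 0.488) and 2.71-fold lower than in ESC-FCS (0.369, 0.329 to 0.413). ESC-FCS stood 1.19-fold above ESC-2i (1.11 to 1.27). These 3 comparisons share populations and are not independent of each other. Scaled to molecules of the ERCC spike-in transcripts instead of molecules on genes, the ratios kept their directions at 0.356, 0.145 and 2.45, with the median of all genes moved by -0.30, -1.34 and 1.05 on the log2 scale.

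**Figure D1:**
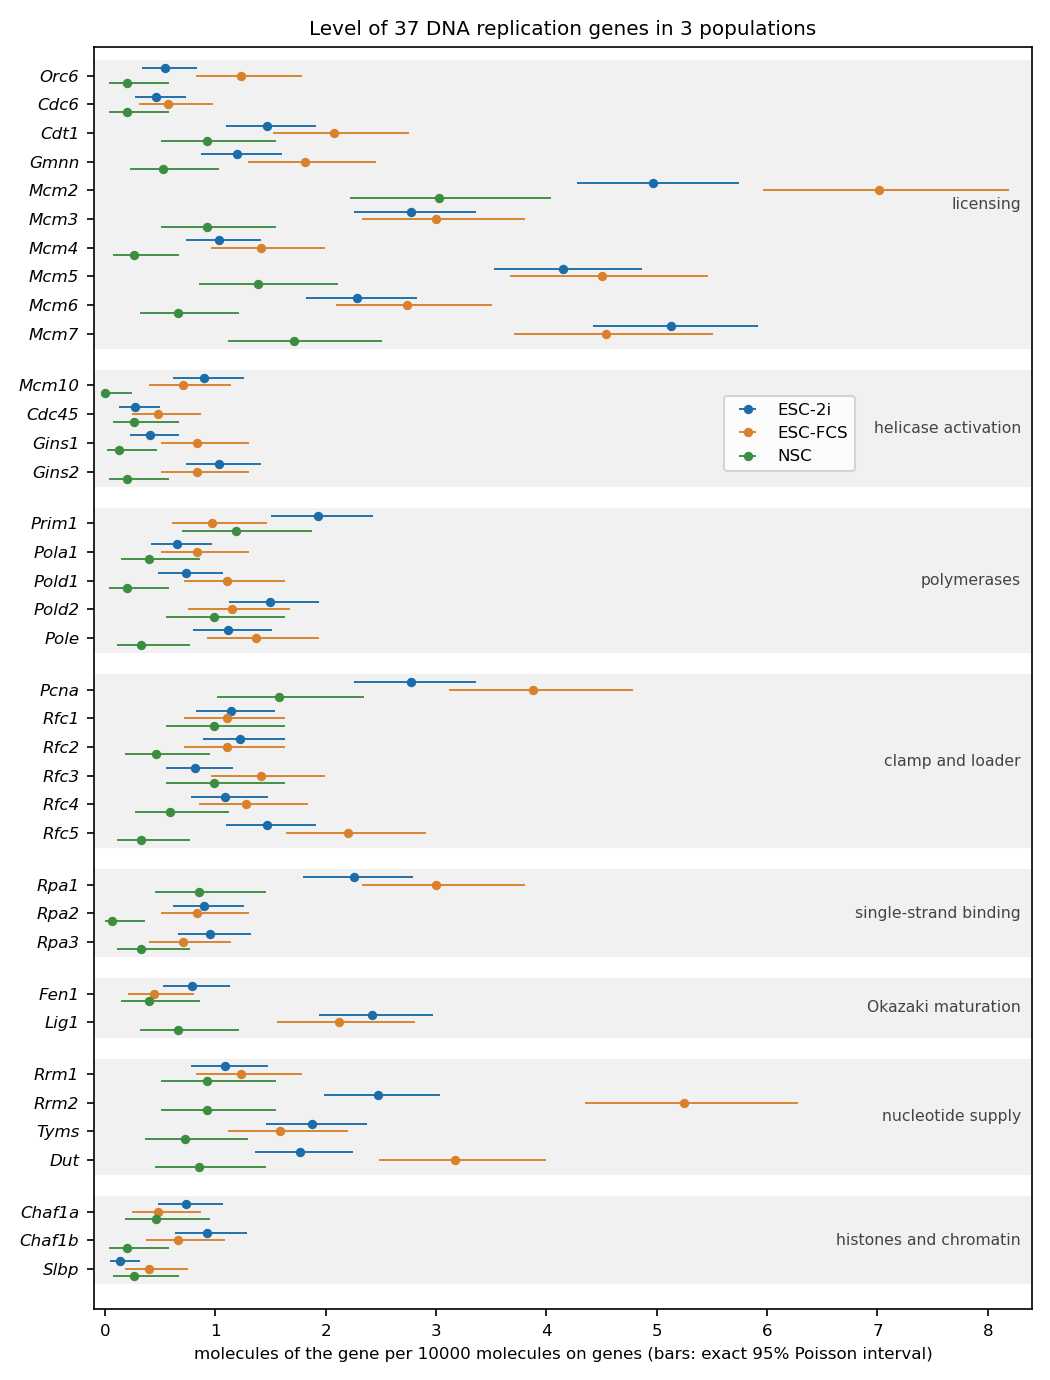
Level of each of the 37 members, grouped by role, in molecules per 10000 molecules on genes, with points for the 3 populations and bars for the exact 95% Poisson interval. Most NSC points lie left of both ES cell points, and Mcm2, at 7.01, 4.97 and 3.03 in ESC-FCS, ESC-2i and NSC, lies farthest right in ESC-FCS and NSC.

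A few genes carried much of the sum. Mcm7, Mcm2 and Mcm5 had the highest levels in ESC-2i, at 5.13, 4.97 and 4.15 per 10000, and their intervals overlapped. In ESC-FCS the order was Mcm2 at 7.01, Rrm2 at 5.25 and Mcm7 at 4.54, each interval overlapping the next. In NSC Mcm2 led at 3.03, followed by Mcm7 at 1.71 and Pcna at 1.58. The 6 genes of the helicase ring made up a similar share of members' molecules, 35.5% (ESC-2i), 34.1% (ESC-FCS) and 31.8% (NSC). The median member had a level of 1.11, 1.24 and 0.527, and 32 of the 37 members lay below 1 molecule per 10000 in NSC, against 14 and 13 in the ES cells.

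Member by member, the lower level in NSC was spread over the list. Relative to ESC-2i, 35 of 37 members had a ratio below 1, counting Mcm10 at its bound, with a median ratio of 0.380. Of 34 members with at least 20 molecules in the 2 populations together, 22 were at least 2-fold lower in NSC and 0 were 2-fold higher, whereas among the 4803 genes that met the same limit 24.3% were lower and 19.3% higher. All 22 were lower in each of the 4 pairs of NSC and ESC-2i batches. So were 1101 of the 1168 genes that were 2-fold lower (22.9% of the 4803). The pairs use the same molecules as the pooled ratio and are no separate check. For 20 of the 22 members the interval of the ratio excluded 1. Relative to ESC-FCS, 25 of 30 members with enough molecules were at least 2-fold lower and 0 were higher, against 18.4% and 20.9% of 3600 genes. All 25 were lower in each of 4 pairs of batches, as were 622 of the 663 genes that were 2-fold lower (17.3% of the 3600). For 22 of the 25 members the interval excluded 1. A member that is scarce in NSC meets the limit of 20 molecules through the ES cells alone, which adds to both counts. The batches did not give the same counts. Without batch 2, 9 of 24 members were 2-fold lower than in ESC-2i (23.9% of all genes), and without batch 1 19 of 26 were (26.8%). Relative to ESC-FCS the counts were 16 of 21 (20.5%) without batch 2 and 12 of 12 (18.6%) without batch 1.

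**Figure D2:**
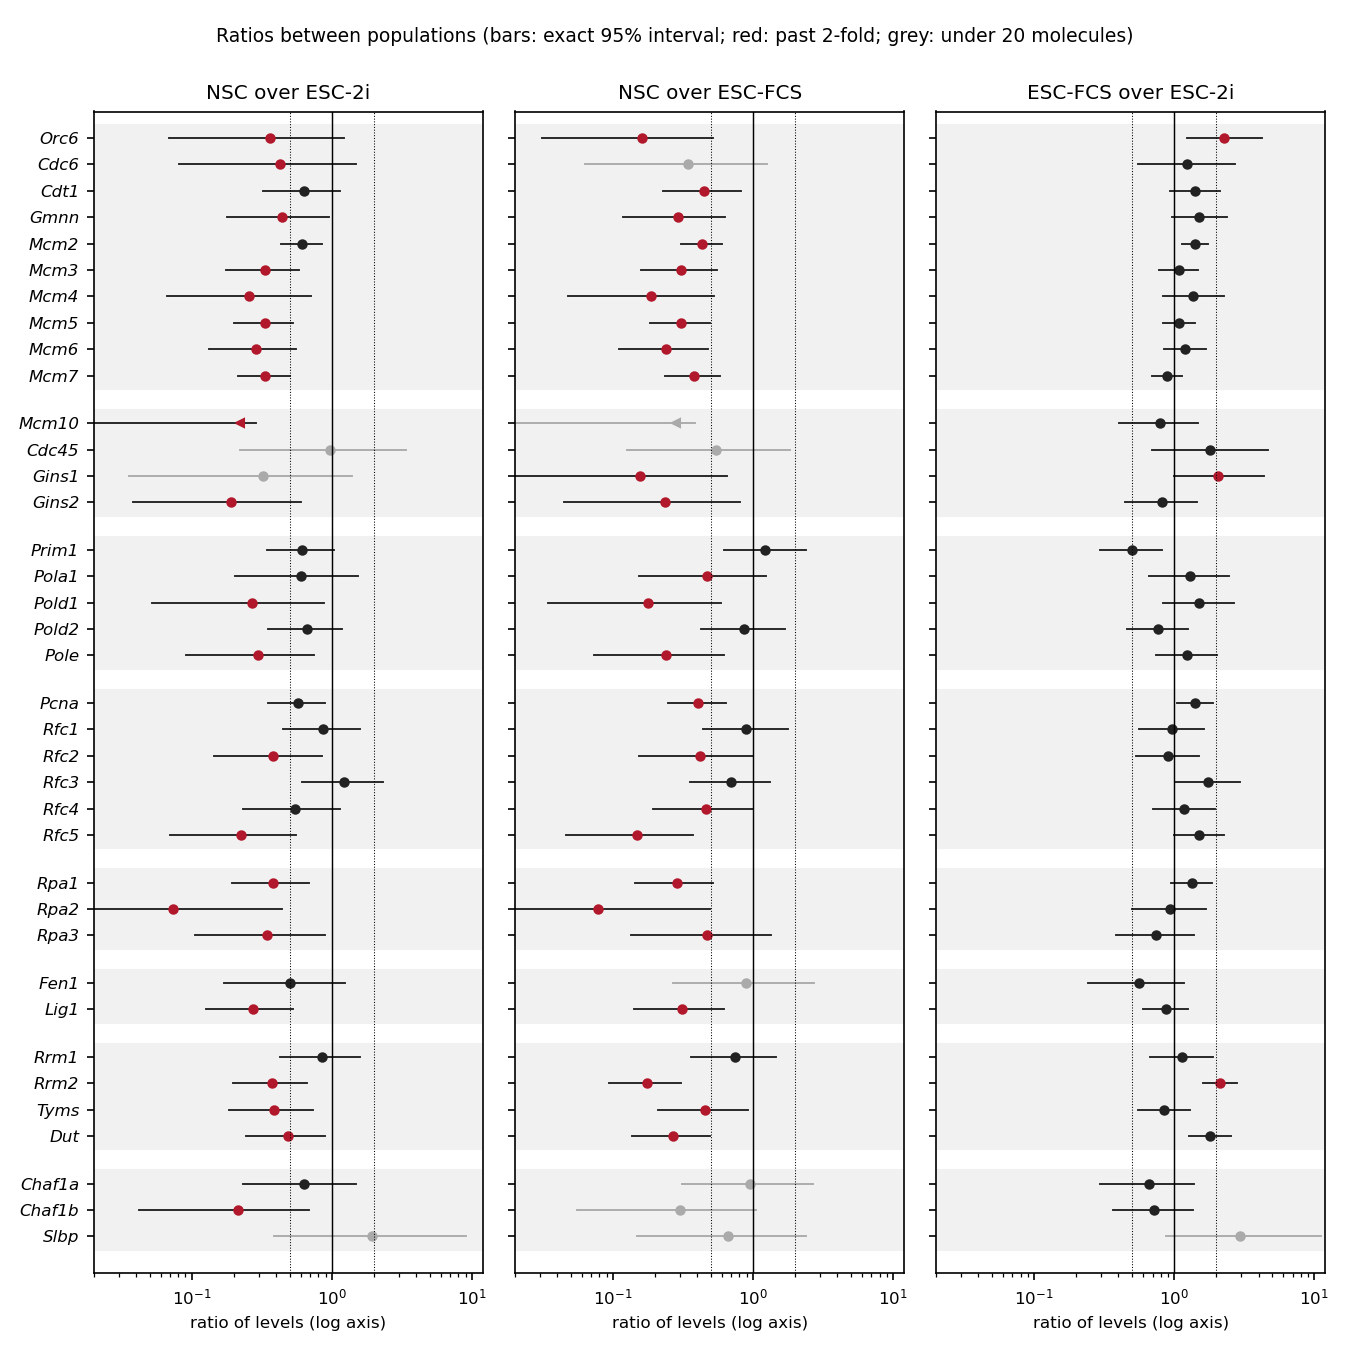
Ratio of the level of each member between 2 populations on a log axis, with exact 95% intervals, dotted lines at 2-fold, red points past 2-fold, grey points for members with under 20 molecules and arrowheads where NSC had no molecule. In the panels of NSC over ESC-2i and NSC over ESC-FCS, 22 and 25 members are red and all lie left of 1, and in the panel of ESC-FCS over ESC-2i 3 are red and lie right of 1.

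The licensing genes as a group stood at 24.0 molecules per 10000 in ESC-2i and 28.9 in ESC-FCS, but 9.81 in NSC, a ratio of NSC to ESC-2i of 0.409 (0.341 to 0.487) and to ESC-FCS of 0.340 (0.282 to 0.406). Past 2-fold lower were 8 of 10 relative to ESC-2i (24.3% of all genes tested) and 9 of 9 tested relative to ESC-FCS (18.4%). Within the helicase ring the members did not share a ratio. Mcm2, which closes the ring around DNA together with Mcm5, had 183 molecules (ESC-2i), 159 (ESC-FCS) and 46 (NSC), the order in which molecules are given for further members, with levels by batch of 4.70 and 5.21, 7.68 and 6.12, and 3.26 and 2.77. Its batches in the 3 populations did not overlap, and its ratio of 0.610 between NSC and ESC-2i (0.431 to 0.846) was nearer 1 than that of the other ring genes. Mcm7 had 189, 103 and 26 molecules and Mcm5 had 153, 102 and 21, with levels in NSC of 1.88 and 1.53 and of 1.75 and 0.971 by batch, and both were 3.00-fold lower in NSC than in ESC-2i. Mcm3, Mcm6 and Mcm4 had 14, 10 and 4 molecules in NSC against 102, 84 and 38 in ESC-2i. Their ratios were 0.333 (0.176 to 0.585), 0.289 (0.134 to 0.558) and 0.255 (0.0662 to 0.709). The interval of Mcm2 overlaps each of these, and the difference between ring genes was not tested.

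Among the factors that load the ring, Cdt1 had 54, 47 and 14 molecules. It was 2.25-fold lower in NSC than in ESC-FCS, whereas its ratio to ESC-2i was 0.629 (0.323 to 1.15). Gmnn encodes geminin, which binds Cdt1 and blocks new licensing once S phase has begun, and it had 44, 41 and 8 molecules, with ratios of 0.441 and 0.291. Cdc6, the ATPase that recruits Cdt1 to origins, had 17, 13 and 3 molecules, and all 3 NSC molecules were in 1 of 41 cells. Orc6, a subunit of the origin recognition complex, had 20, 28 and 3 molecules, and its level in ESC-FCS was 2.28-fold that in ESC-2i (1.24 to 4.26). Its batches were 0.287 and 0.773 in ESC-2i and 1.38 and 1.04 in ESC-FCS, so they did not overlap.

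Promoters of several licensing genes held an 8-letter form of the E2F site. In the window from 250 bases before to 50 after the start, TTTCCCGC, TTTCGCGC, TTTGCCGC or TTTGGCGC was searched on both strands in RefSeq promoters on GRCm38.p6, which held 31 of the 37 members. A form was found in 10 of these 31 (32.3%), namely Cdc6, Cdt1, Mcm3, Mcm5, Mcm6, Mcm7, Lig1, Pola1, Pold1 and Rfc3. The share was 2.6% over 27025 genes and 5.41% over 4658 genes with at least 20 molecules. Among the other lists it was 43.2% (16 of 37) for other replication genes, 31.2% (5 of 16) for G1/S regulators and 5% (1 of 20) for G2/M genes. CCAAT, searched in the same way, stood in 67.7% of members' promoters, 43.7% of those of genes with at least 20 molecules and 85% of those of G2/M genes. Shown are the 30 bases around upstream matches in 4 licensing genes, each on the strand of its gene with the form in capitals, at chr8:75109345-75109374 (Mcm5, plus strand, form starting 153 bases before the start), chr1:128359797-128359826 (Mcm6, minus, 110 bases before), chr5:138172030-138172059 (Mcm7, minus, 165 before) and chr11:98908002-98908031 (Cdc6, plus, 138 before).
Mcm5: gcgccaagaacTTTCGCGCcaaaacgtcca
Mcm6: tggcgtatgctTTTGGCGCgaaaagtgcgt
Mcm7: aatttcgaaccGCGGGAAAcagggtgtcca
Cdc6: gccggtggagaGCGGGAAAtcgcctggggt
The last of these pairs show the form on the opposite strand. In Mcm5 and Mcm6 a second form overlaps the capitals by 4 bases on the other strand. A match is a description of letters, and binding was not measured here. No form was found in the windows of Mcm2, Pcna and Rrm2.

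The genes of helicase activation showed the lowest ratio of NSC to ESC-2i among the roles. Together they had 96, 65 and 9 molecules, a ratio to ESC-2i of 0.227 (0.101 to 0.450) and to ESC-FCS of 0.207 (0.0905 to 0.417). Mcm10, which binds the ring as replication starts, had 33 and 16 molecules in the ES cells and 0 in NSC. With NSC set to 3 counts its level was 4.54-fold lower than in ESC-2i, and the counting interval reached down to 3.49-fold. Gins2, a subunit of the GINS complex that joins the helicase, had 38, 19 and 3 molecules and was 5.22-fold lower in NSC than in ESC-2i (ratio 0.191, 0.0378 to 0.603). Gins1, of the same complex, had 15, 19 and 2 molecules and was 2.06-fold higher in ESC-FCS than in ESC-2i, with an interval of 0.991 to 4.35 that includes 1. Cdc45, the third part of the active helicase, had 10, 11 and 4 molecules, too few to be counted in either comparison with NSC.

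Single-strand binding was likewise low in NSC. The RPA trimer coats unwound DNA, and its genes had 151, 103 and 19 molecules, a ratio to ESC-2i of 0.305 (0.179 to 0.493). All 3 genes were past 2-fold lower in NSC than in ESC-2i (24.3% of all genes tested) and than in ESC-FCS (18.4%). For Rpa3 relative to ESC-FCS, however, the interval of the ratio (0.466, 0.134 to 1.33) included 1. That call was lost by reads and among cells with at least 2000 molecules. Rpa2 had 33 and 19 molecules in the ES cells and 1 in NSC, a ratio to ESC-2i of 0.0735 whose counting interval runs from 0.00181 to 0.439. Rpa1, the large subunit, had 83, 68 and 13 molecules and a ratio of 0.380, and Rpa3 had 35, 16 and 5 and a ratio of 0.346.

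The polymerase genes were also lower in sum in NSC. Their summed level was 5.92 per 10000 (ESC-2i), 5.43 (ESC-FCS) and 3.09 (NSC), a ratio to ESC-2i of 0.523 (0.373 to 0.720). Pold1 and Pole, the catalytic subunits of the polymerases that extend the lagging and the leading strand, were past 2-fold in both comparisons, with 27, 25 and 3 and with 41, 31 and 5 molecules. Pold2, an accessory subunit of polymerase delta, had 55, 26 and 15 molecules, and its ratio to ESC-FCS of 0.861 (0.424 to 1.69) was near 1. Prim1, the primase subunit that starts each new strand with RNA, had levels by batch of 2.24 and 1.65 in ESC-2i, 1.15 and 0.726 in ESC-FCS and 1.25 and 1.11 in NSC. Its level was thus highest in ESC-2i, with a ratio of ESC-FCS to ESC-2i of 0.504 (0.297 to 0.822), and NSC overlapped ESC-FCS. Pola1, its partner in the same complex, had 24, 19 and 6 molecules, with ratios of NSC to ESC-2i and ESC-FCS of 0.606 and 0.471.

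Clamp and clamp loader genes ranged widely within the group. Pcna, the sliding clamp that tethers polymerases to DNA, had 102, 88 and 24 molecules, with levels by batch of 2.29 and 3.20, 3.76 and 4.04, and 1.25 and 1.94. The ratio of NSC was 0.571 (0.350 to 0.897) to ESC-2i and 0.407 (0.248 to 0.645) to ESC-FCS. Of the loader subunits, Rfc5 was lowest in NSC relative to both ES populations, with 54, 50 and 5 molecules and ratios of 0.225 and 0.149. Rfc1 and Rfc3 stood at the other end, with 42, 25 and 15 and with 30, 32 and 15 molecules. Their ratios of NSC to ESC-2i were 0.866 (0.446 to 1.59) and 1.21 (0.606 to 2.33), so a 2-fold lower level lies outside the interval of Rfc3. Rfc2 and Rfc4 were between, at 0.377 and 0.546.

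Genes of nucleotide supply differed most between the ES cell media. They provide deoxynucleotides for synthesis, and their summed levels were 7.19 (ESC-2i), 11.2 (ESC-FCS) and 3.42 (NSC), so that ESC-FCS stood 1.56-fold above ESC-2i (1.31 to 1.86). Rrm2, the subunit of ribonucleotide reductase whose level is known to follow S phase, had 91, 119 and 14 molecules. By batch its level was 2.69 and 2.27 in ESC-2i, 6.30 and 3.84 in ESC-FCS and 1.63 and 0.139 in NSC, without overlap between populations. It was 2.13-fold higher in ESC-FCS than in ESC-2i (1.60 to 2.82) and 5.69-fold lower in NSC than in ESC-FCS. Rrm1, the large subunit of the same enzyme, did not follow it, with 40, 28 and 14 molecules and ratios of 1.14 (0.676 to 1.89) for ESC-FCS to ESC-2i and 0.849 (0.427 to 1.59) for NSC to ESC-2i. Dut, which removes dUTP and yields the precursor of dTTP, had 65, 72 and 13 molecules and stood 1.80-fold higher in ESC-FCS than in ESC-2i (1.27 to 2.56). Tyms, which makes dTMP, had 69, 36 and 11, a ratio of ESC-FCS to ESC-2i of 0.848.

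The last groups are small. Lig1, the ligase that seals Okazaki fragments, had 89, 48 and 10 molecules and was 3.67-fold lower in NSC than in ESC-2i. Fen1, the nuclease that trims them, had 29, 10 and 6, a ratio to ESC-2i of 0.502 (0.170 to 1.23). Chaf1b and Chaf1a encode subunits of the factor that places histones behind the fork, and had 34, 15 and 3 and 27, 11 and 7 molecules, with ratios to ESC-2i of 0.214 and 0.629. Slbp, which binds the stem loop of histone mRNA, was the scarcest member in ESC-2i and ESC-FCS, with 5, 9 and 4 molecules, and was tested in no comparison.

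Between the ES cell media the members as a list did not stand out in the count past 2-fold. Of 36 members with enough molecules, 3 were at least 2-fold higher in ESC-FCS than in ESC-2i (8.33%) and 0 lower, and of 5007 genes 8.17% were higher and 14.5% lower. The 3 were Orc6, Gins1 and Rrm2, all higher in each of 4 pairs of batches. So were 366 of the 409 genes that were 2-fold higher (7.31% of the 5007). The median ratio of the 36 was 1.19, and that of the 5007 genes was 0.956. Without batch 1 none of these 3 genes was past 2-fold, whereas Dut was higher and Prim1 lower. Under scaling to ERCC molecules 22 of 36 were 2-fold higher, together with 49.4% of all genes.

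Libraries made apart from those of the 144 cells sorted for the 3 populations, here called main cells, were also compared. In sum, pools compared with pools gave the same order of the media as the main cells. Additional ESC-FCS cells set against ESC-2i pools gave the opposite order. Of 48 additional ESC-FCS cells, 42 were kept, with member levels of 80.6 and 80.2 per 10000 in their batches. A pool of 48 ESC-FCS cells had 106 (101.4 to 111.0), and a pair of pools of 48 ESC-2i cells had 98.1 (95.3 to 100.9) and 103 (99.9 to 105.5). The interval of the ESC-FCS pool overlapped that of the second ESC-2i pool, so the order of the pools rests on a small difference. In a pool, fewer cells in a state and less RNA per cell cannot be told apart. The additional ESC-FCS cells lay above the main ESC-2i cells (53.8 and 60.4). The pools were higher than the single cells of their population also for other replication genes (64.0 to 81.2), G1/S regulators (30.4 to 33.0) and G2/M genes (36.6 to 43.4). Relative to the ESC-2i pools, the summed level was 0.801 (0.761 to 0.843) in the additional ESC-FCS cells, a comparison of single cells with pools, and 1.06 (1.01 to 1.11) in the ESC-FCS pool. Of 37 members, 10 were 2-fold higher and 10 lower in the additional cells than in the ESC-2i pools, against 16.8% and 41.5% of 8064 genes. The median ratio was 0.784 for the members and 0.644 for these genes, so the typical gene also lay below 1 here. Of 36 members, 12 were higher and 5 lower in the ESC-FCS pool, against 19.4% and 34.5% of 8013 genes. The median ratio was 1.26 for these members and 0.772 for these genes. In both comparisons a gene without a molecule in the ESC-FCS libraries was counted as lower. This adds to the shares of all genes that were lower and can pull down their medians. Every member had molecules in each of these libraries, so the rule did not touch the members. Rrm2, Orc6 and Gins1 lay above the ESC-2i pools in both, at 1.97 and 2.45, 3.19 and 1.87, and 1.86 and 2.31. Dut had ratios of 3.32 and 4.77, and Pcna, at 1.40 in the main cells, had 6.46 and 6.72. Mcm2 lay at 0.568 and 0.577, against 1.41 in the main cells, and so did not keep its direction.

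**Figure D3:**
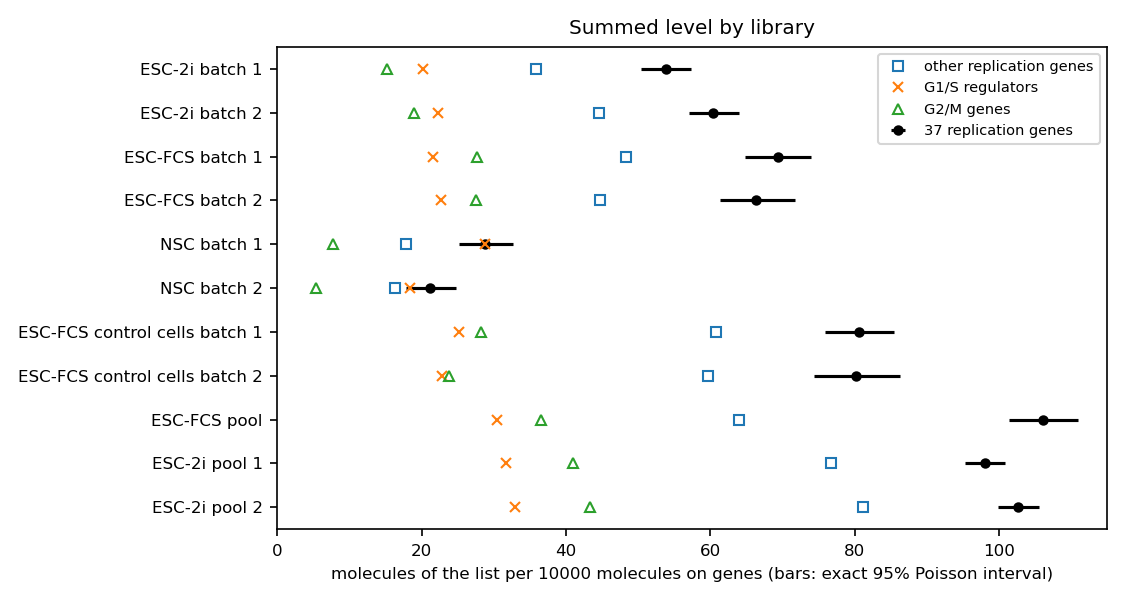
Summed level of the 37 members (black, exact 95% Poisson interval) and of 3 other lists in each library, in molecules per 10000 molecules on genes. The members range from 21.1 in batch 2 of NSC to 106 in the ESC-FCS pool, and the pools lie right of the single cells in every list shown.

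Lists that were not part of the 37 gave the setting of these levels. Further replication genes, 45 in the table, followed the members, with levels of 40.4, 46.8 and 17.1 in the same order and a ratio of NSC to ESC-2i of 0.422 (0.368 to 0.481). Of 25 tested, 15 were 2-fold lower in NSC than in ESC-2i and 1 was higher, against 24.3% and 19.3% of all genes tested. Among them were Nasp, a histone chaperone (152 and 25 molecules in ESC-2i and NSC), Uhrf1, which guides maintenance methylation (156 and 7), and Msh6, of mismatch repair (131 and 5). The list of 24 G2/M genes had the same order of populations, at 17.2, 27.6 and 6.58. Of 14 tested, 9 were 2-fold lower in NSC than in ESC-2i, against the same 24.3% of all genes. Ccnb1, which encodes the mitotic cyclin B1, had 57, 43 and 1 molecules. G1/S regulators stood at 21.2, 22.0 and 23.8 in sum, with an interval of the ratio of NSC to ESC-2i of 0.986 to 1.27. However, the NSC batches, at 28.7 and 18.3, lay above and below every ES batch of the main cells (20.1 to 22.6). Within that sum single genes lay far apart, with Ccnd2 at 44 molecules in NSC and 0 in ESC-2i and ESC-FCS, Ccnd3 at 20 in NSC and 130 in ESC-2i, and Ccne1 at 4 in NSC and 47 in ESC-FCS.

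Fewer members were seen per cell in NSC than in the ES cells. Mcm2 was seen in 32 of 33 ESC-2i cells, 31 of 33 ESC-FCS cells and 21 of 41 NSC, and Rrm2 in 21, 28 and 6. A cell held molecules of a median of 24 members in ESC-2i (range 12 to 35), 19 in ESC-FCS (3 to 33) and 4 in NSC (1 to 21). Since cells of the populations differed in depth, the number of members expected in 1000 molecules of a cell was also computed, and reached 4.83 for ESC-2i, 5.61 for ESC-FCS and 2.18 for NSC. Thinned in this way, Mcm2 was seen in 38.9%, 49.3% and 22.7% of cells, against 97.0%, 93.9% and 51.2% before. None of the 3 populations should lack these genes, so no background of free RNA could be measured with them, but Fabp7, a neural gene with 376 molecules in NSC, had 1 in each ES population.

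The summed score of a cell, its members' molecules per 10000 of its own molecules, was the measure of variation between cells. Among ESC-2i cells it ranged from 23.7 to 93.7 with a median of 51.6, in ESC-FCS from 27.8 to 102 with a median of 63.7, and in NSC from 4.65 to 87.9 with a median of 14.4. The ranges of all 3 populations overlapped. Of 41 NSC, 28 lay below the lowest ESC-2i cell, and 6 lay at or above the ESC-2i median. These 6 cells, 3 from each batch, had scores of 87.9, 76.2, 75.3, 72.8, 65.6 and 57.9, and held between 1593 and 6600 molecules. Their scores rest on 58, 16, 12, 25, 43 and 19 member molecules, in that order. The median cell held 5 member molecules in NSC and 59 in ESC-2i, so the place of a single NSC carries a wide counting error.

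**Figure D4:**
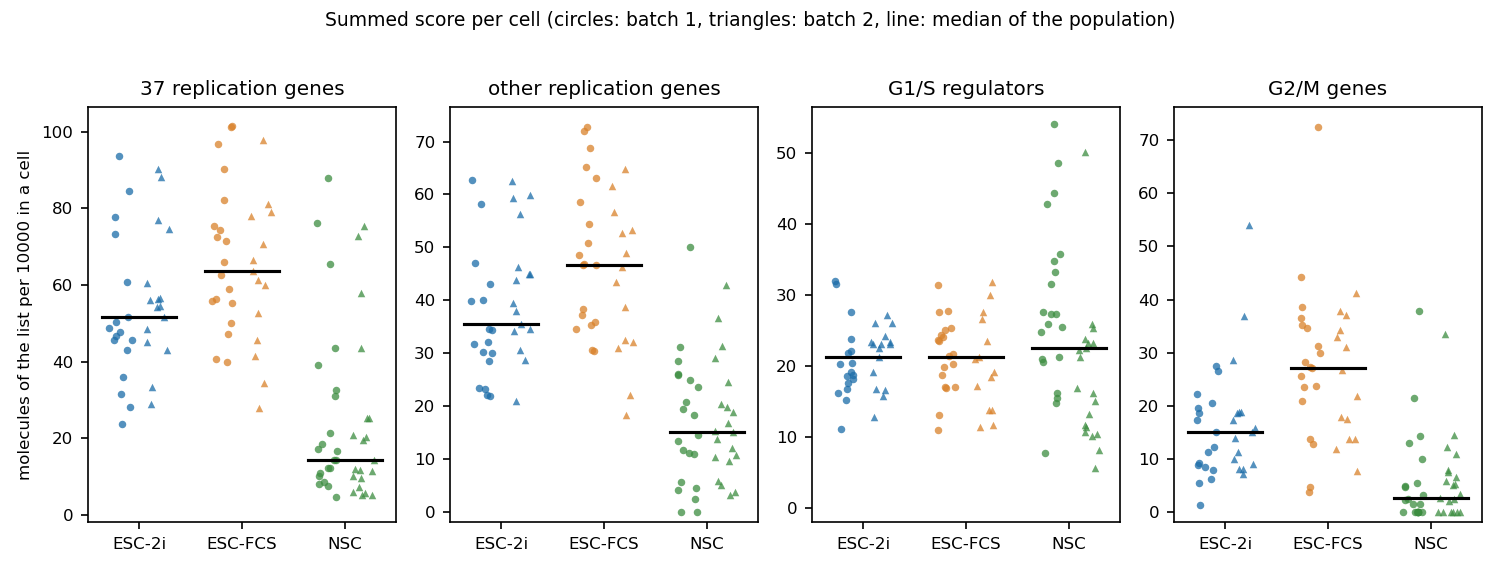
Summed score per cell for the 37 members and 3 other lists, in molecules of the list per 10000 molecules of the cell, with circles for batch 1, triangles for batch 2 and a line at the population median. NSC lie mostly low for the members, with a median of 14.4 and a few cells above 57, and the G1/S panel shows similar medians in all 3 populations.

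Spread of the score exceeded counting noise in all 3 populations. The index of dispersion, the variance of members' molecules over that expected from the depth of each cell, is 1 under counting noise alone, and it reached 6.42 for ESC-2i, 3.14 for ESC-FCS and 8.05 for NSC. Above counting noise, the score had a coefficient of variation of 27.7%, 21.0% and 90.0%. Within batches 1 and 2 the index was 7.23 and 5.67 in ESC-2i, 4.00 and 2.09 in ESC-FCS and 9.14 and 6.51 in NSC, and without the highest NSC cell it was 6.17. The further replication genes gave 4.34, 2.39 and 2.90, G1/S regulators 1.15, 0.890 and 1.73, and G2/M genes 7.79, 3.85 and 5.18. The index grows with the number of molecules at the same relative spread, so the sum, the lists and single genes are not ranked by it. A single member with at least 20 molecules had a median index of 1.18 in ESC-2i (33 members), 1.05 in ESC-FCS (25) and 1.92 in NSC (4), against 1.13, 1.15 and 1.13 over all such genes. Pairs of different members held 91.0%, 90.5% and 93.1% of the variance above counting noise.

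The parts of the list followed each other from cell to cell. Between licensing members and the other 27, Pearson's r across cells was 0.741 in ESC-2i (33 cells), 0.428 in ESC-FCS (33) and 0.723 in NSC (41), with Spearman's rho of 0.698, 0.408 and 0.472. Between members and the further replication genes r was 0.819, 0.474 and 0.733 and rho 0.829, 0.507 and 0.681. Batch 2 of ESC-FCS gave the weakest of these within a batch, at 0.209 over 14 cells. Values of a cell share its library and its total, and r of the score with molecules on genes was 0.373, 0.242 and 0.0362. Against G2/M genes r was 0.273, 0.224 and 0.616 and rho 0.452, 0.160 and 0.135. In NSC r was far above rho, r was 0.814 and 0.354 in the batches, and 14 of 41 NSC had no G2/M molecule. Whether few cells carried the larger r was not tested. The 6 NSC with the highest member scores, in that order, had G2/M levels of 37.9, 14.3, 0, 14.6, 21.4 and 33.5 per 10000, against a population median of 2.52. The sort took cells of 1N DNA content, and whether cells outside G1 passed the gate was not tested.

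**Figure D5:**
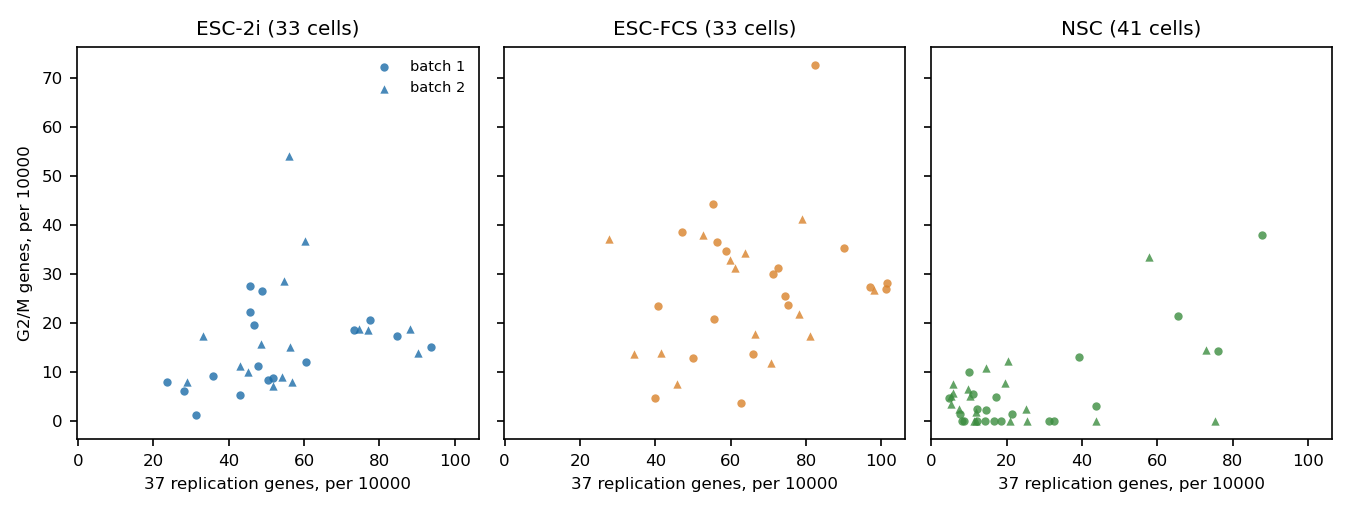
Summed score of the 37 members (x axis) against that of 24 G2/M genes (y axis) in each cell, both in molecules per 10000, by population and batch. In NSC most cells lie near the lower left corner, and the highest cell stands at 87.9 and 37.9, whereas ES cells fill the middle of both axes.

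In the test of Brennecke and colleagues, which asks whether the squared coefficient of variation (CV2) of a gene exceeds the technical noise fitted on ERCC transcripts by a margin of 0.25, a single member was called in each population, and a different gene each time. In ESC-2i it was Rrm2, 1 of 33 members tested, where 0.608% of 3616 genes were called. Rrm2 had between 0 and 14 molecules in a cell with a median of 1, 12 cells with 0 and 9 with at least 5, and a CV2 of 1.76 against a technical 0.564 (Benjamini-Hochberg adjusted p = 0.0261). In ESC-FCS it was Pcna, 1 of 24, where 3.36% of 2026 genes were called. Pcna had 0 to 11 molecules with a median of 3, and a CV2 of 1.64 against 0.556 (adjusted p = 0.0233).

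In NSC Mcm2 was called, 1 of the 2 members with a mean above 0.5 molecules, where 10.7% of 1157 genes were called. It had 0 to 8 molecules with a median of 1 and no molecule in 20 of 41 cells, and a CV2 of 2.73 against 1.02 (adjusted p = 0.00107). Mcm7, the other, had an adjusted p of 0.125. Cells were the units of this test, so it says nothing of other cultures, and on simulated counts it made more calls at low means than its threshold allows. Among cells with at least 2000 molecules, which left 33 NSC, Mcm2 was no longer called, and with a margin of 0.5 neither Rrm2 nor Pcna was. Over the alternatives the adjusted p ran from 1.17e-06 to 1 for Mcm2, from 2.5e-06 to 0.642 for Pcna and from 9.27e-07 to 1 for Rrm2. In the main setting none of the 3 genes was called in more than 1 population, and a difference in variation between populations was not tested. No further replication gene, G2/M gene or G1/S regulator was called in ESC-2i. In ESC-FCS, 1 of 11 G2/M genes tested (Nusap1) and 1 of 16 further replication genes (Tipin) were called, against 3.36% of all genes. In NSC 1 of 4 G1/S regulators tested (Ccnd3) was called. There 0 G2/M genes and only 2 further replication genes could be tested. Nusap1 had 21 molecules in ESC-FCS and Ccnd3 20 in NSC, so both had low means.

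Use of 3′ ends was compared for the 4 members whose second site held at least 10% of molecules and at least 20 molecules. Further members, such as Gins1 with 12 molecules (33.3%) at its second site, reached the share but not the count. The sites lie 26 nt apart in Rrm2, 37 in Prim1, 43 in Mcm3 and 187 in Tyms, all within the 3′ UTR. The longer form of Tyms, which ends at position 30060811 of chromosome 5, made up 7 of 54 molecules in ESC-2i (13.0%, Clopper-Pearson interval 5.37% to 24.9%), 13 of 31 in ESC-FCS (41.9%, 24.5% to 60.9%) and 0 of 7 in NSC, where the interval reaches 41.0%. The intervals of the ES populations touch, and of 379 genes with at least 20 molecules in each, 39.8% differed by 10 percentage points or more. By reads in place of molecules the ESC-2i share of Tyms was 3.24%. Rrm2 had 24.7% of the longer form in ESC-2i and 25.0% in ESC-FCS, Prim1 33.3% and 31.2%, and Mcm3 11.3% and 15.2%, each difference well within the intervals. In NSC the longer form made up 0 of 12 molecules of Rrm2, 5 of 16 of Prim1 and 3 of 14 of Mcm3, too few to separate from the ES cells.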

How the data were processed

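BATSeq libraries of 144 mouse cells in 3 populations, 48 additional ESC-FCS cells and 3 pools were analysed. As deposited by the authors, the files hold counts of unique molecular identifiers and of reads per polyadenylation site, and a table of counts per gene, not normalized. The authors demultiplexed the reads, aligned them to GRCm38 and ERCC sequences, removed reads that were ambiguous or could come from internal priming, and merged identifiers of a gene and neighbouring positions. The submitters' processing notes name HTSeq and R 3.0.2.

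The 37 members, their roles and all other lists were chosen with earlier results of these data known. All members may be named. Of the other lists, the genes named are among the 4 with most molecules of those past 2-fold in a comparison, or were called in the test of variation, as Tipin was; the latter were chosen after their values were seen. Populations came from the sample labels. The 107 cells of the gene table were used, and additional ESC-FCS cells were kept at 1000 molecules or more. No doublets were called. Levels are molecules per 10000 molecules on genes, with exact Poisson intervals; ratios have exact conditional binomial intervals and shares Clopper-Pearson intervals, at 95%. A gene was counted at a ratio of at least 2 with at least 20 molecules in the populations compared, and a population with 0 was set to 3 counts. In comparisons with the ESC-2i pools, only the ESC-2i pools were set in this way. Variation used the Brennecke test (normalized mean above 0.5, adjusted p below 0.1, Benjamini-Hochberg over all genes tested). It was tested on simulated counts and recovered strongly variable genes, but called more invariable genes than its threshold allows, mostly at means under 1 molecule. PCR with molecular identifiers was counted by molecules, and intervals cover counting error only. GENCODE M21 and RefSeq promoters gave annotations. Promoters matched 31 of 37 members by symbol, all but Gmnn, Mcm4, Gins1, Gins2, Pole and Rfc2. Headers of the final pair of columns were swapped in per-cell tables, which were therefore read by content. Computation used scipy 1.17.1, matplotlib 3.10.9, pandas 2.3.3 and numpy 2.4.6 under Python 3.11.15. Alternatives covered cells, scaling, batches, reads, thresholds and test settings.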

Additional observations from a re-analysis of the deposited data

How the results depend on the processing

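Of 183 values recomputed under other settings, 139 stayed within the spread or within 1.5 times the count and 44 moved further. A reversal could be recorded only for ratios of the summed level, of which 0 reversed. No member past 2-fold was past it in the other direction. Without library batch 1 the summed level was 60.4 in ESC-2i and 21.1 in NSC, with ratios of 0.349 (NSC to ESC-2i), 0.318 (NSC to ESC-FCS) and 1.10 (ESC-FCS to ESC-2i). Without batch 2 these were 53.8, 28.7, 0.533, 0.414 and 1.29. As a mean over cells the ESC-2i level was 54.8. By reads the levels were 61.8 (ESC-2i) and 72.8 (ESC-FCS) and the ratios of NSC 0.384 and 0.326. Without Mcm2 the levels were 52.3, 61.1 and 22.1 in ESC-2i, ESC-FCS and NSC.

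Counts of members past 2-fold follow with the share of all genes in parentheses. Members lower in NSC than in ESC-2i numbered 19 of 26 without batch 1 (26.8%), 9 of 24 without batch 2 (23.9%) and 12 of 19 at 50 molecules (22.3%). Members lower in NSC than in ESC-FCS numbered 12 of 12 without batch 1 (18.6%), 16 of 21 without batch 2 (20.5%) and 12 of 12 at 50 molecules (14.9%), and by reads 1 of 30 was higher (25.3%). Between ESC-FCS and ESC-2i, 1 of 32 was higher (9.14%) and 1 lower (16.0%) without batch 1, and 1 of 32 lower (12.6%) without batch 2. As a mean over cells 1 of 36 was lower (16.4%). By reads 5 of 36 were higher (14.7%) and 5 lower (19.9%), so neither exceeded the share of all genes. Under ERCC scaling 22 of 36 were higher (49.4%), at 50 molecules 1 of 27 (5.09%), and at 1.5-fold 9 of 36 were higher (19.1%) and 3 lower (26.2%).

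In the Brennecke test 0 members were called in ESC-2i and ESC-FCS with a margin of 0.5 (1 of each had an unadjusted p under 0.05), 0 in ESC-FCS with size factors from molecules on genes (1 under 0.05) and 0 in NSC among cells with at least 2000 molecules (0 under 0.05). In NSC 2 were called with no margin and 4 (Mcm2, Pold2, Prim1 and Rfc4) with a mean above 0.25. The index of dispersion of NSC was 6.17 without the highest cell. By reads the longer share in ESC-2i was 38.1% for Rrm2, 19.5% for Prim1 and 3.24% for Tyms. The cause of these shifts was not tested. No paired analysis was possible because the labels name no replicates that populations share, and batch numbers only name libraries. Depth limits members with few molecules, such as Slbp and Cdc45, and since the labels name no replicate cultures, variation between cultures could not be estimated.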
